A study of Homo sapiens with 24 samples.

Results

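The 8 genes examined here start or restrain plasminogen activation and blood coagulation: PLAU, PLAUR, PLAT, SERPINE2, F3, THBD, TFPI and TFPI2. Their loci were followed in H3K27ac ChIP-seq, which sequences DNA pulled down with an antibody to acetylated lysine 27 of histone H3, a mark of active promoters and enhancers. A region belonged to a gene when the authors' annotation of that region named the gene as overlapping or as a flanking gene, which reached at most 10000 bp. This rule found 113 of the 171345 regions in 6 deposited tables, for 7 of the 8 genes. TFPI2 was named by no region of any table.

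The libraries were 24 in 8 groups of 3, from 2 human mammary epithelial lines. 10A (MCF10A) is an immortalized, non-tumorigenic line, and DCIS (MCFDCIS) is a malignant relative of it, obtained by passage of an oncogene-carrying 10A derivative in mice, that stands for ductal carcinoma in situ. Each line carried a lentiviral hairpin, either against ANCO1, the protein product of ANKRD11 (shANCO1), or against GFP as the control (shCTRL), and each was profiled with the H3K27ac antibody and as input, the sonicated chromatin before the pull-down. All cells had therefore been infected and selected, and the study names 1 ANCO1 hairpin for its ChIP-seq analysis, so a change seen with it has no second hairpin beside it here. The tables give 1 value per region for each whole group and none per library, so no spread between replicates can be shown, and every FDR is from the csaw test over all regions of a table, as deposited. A region "rose" or "fell" when that FDR was under 0.05 and its listed direction was up or down. A log2 fold change is that of 1 representative window of the region, shANCO1 over shCTRL. Since the cells were profiled in bulk, a mark present in more cells and more mark per cell cannot be told apart.

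Plasminogen is a circulating zymogen that is cut into plasmin, a broad protease that dissolves fibrin and degrades extracellular matrix. Urokinase (PLAU), which acts at the cell surface when held by its receptor (PLAUR), and tissue plasminogen activator (PLAT) make that cut, and serpins such as protease nexin-1 (SERPINE2) block them. Coagulation starts when tissue factor (F3) binds factor VII, and it is held back by tissue factor pathway inhibitor (TFPI), its relative TFPI2 and thrombomodulin (THBD), which turns thrombin toward activation of protein C. In epithelial tumours, urokinase, its receptor and tissue factor are best known for their part in invasion.

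In all, 6 stretches of the regulatory DNA in question are printed here: the largest rise, examples of rises found at the same place in both lines, 1 rise called in 10A alone, and the only falls lay on them. All are from GRCh38 and are written 5' to 3' on the gene's strand. Capitals mark the AP-1 word TGACTCA (or TGAGTCA, its reverse complement) and the TEAD word GGAATG (or CATTCC). The first lies at chr10:73899476-73899596 on the plus strand, inside the distal PLAU region that showed the largest log2 fold change of all 8 genes in DCIS, and holds an AP-1 word with a TEAD word on either side, 31 and 34 bases away.
PLAU distal: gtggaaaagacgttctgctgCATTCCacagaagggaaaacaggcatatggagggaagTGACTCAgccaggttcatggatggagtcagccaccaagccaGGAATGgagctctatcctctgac
The second lies at chr10:73907212-73907332 on the plus strand, in the proximal PLAU region that rose in both lines, with 23 bases between the words.
PLAU proximal: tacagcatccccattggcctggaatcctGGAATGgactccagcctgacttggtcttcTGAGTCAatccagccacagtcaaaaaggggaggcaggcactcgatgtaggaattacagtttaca
The third is the F3 promoter as RefSeq gives it for GRCh38.p14, the 250 bases before the start site at chr1:94541760-94542009 on the minus strand, which lay within a region that rose in both lines.
F3 promoter: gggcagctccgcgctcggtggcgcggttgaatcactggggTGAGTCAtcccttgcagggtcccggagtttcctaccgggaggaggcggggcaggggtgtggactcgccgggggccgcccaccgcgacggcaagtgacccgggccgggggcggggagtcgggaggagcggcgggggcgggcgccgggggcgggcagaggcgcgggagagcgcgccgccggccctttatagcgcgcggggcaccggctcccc
Next, the stretch at chr19:43675552-43675672 on the minus strand lies upstream of PLAUR, where acetylation rose in 10A.
PLAUR upstream: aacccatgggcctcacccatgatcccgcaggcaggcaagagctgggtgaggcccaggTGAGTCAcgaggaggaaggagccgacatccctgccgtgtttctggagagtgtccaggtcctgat
The last pair are the midpoints of the SERPINE2 regions that fell in DCIS, at chr2:224040090-224040210 and chr2:224041640-224041760 on the minus strand, and neither holds either word.
SERPINE2 near: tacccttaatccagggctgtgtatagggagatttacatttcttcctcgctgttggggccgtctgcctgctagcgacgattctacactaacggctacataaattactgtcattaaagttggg
SERPINE2 far: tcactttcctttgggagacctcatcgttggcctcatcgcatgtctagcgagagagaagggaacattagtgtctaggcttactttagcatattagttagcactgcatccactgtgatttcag

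In 10A, 17 of the 31 regions of these genes rose (54.8%) and 0 fell. Each of the 7 genes with a region had at least 1 that rose, as did 74.3% of all genes named by a region. The background was high, since 43.6% of all 50284 regions tested rose, or 44.5% of those that name a gene, and 0.225% fell. By the unadjusted csaw p-value under 0.05, 18 regions of these genes were higher and 0 lower. The share of all regions under that limit is not given here, so these counts have no background beside them. The median log2 fold change of the 31 regions was 0.73, beside 0.76 over all regions, and it ranged from -0.02 to 1.76. As a set, the genes' regions in 10A were thus close to the table as a whole, in which 91.8% of regions had a positive value.

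In DCIS, 8 of 30 regions rose (26.7%), in 4 of the 7 genes (PLAU, PLAT, F3 and THBD, beside 32.2% of all genes named), and 2 fell (6.67%), both in SERPINE2. Over all 44790 regions 23.6% rose, or 22.1% of those that name a gene, and 4.86% fell, so the shares were again near the background. By the unadjusted csaw p-value under 0.05, 11 of the 30 regions were higher, 3 lower and 1 mixed, again without the share of all regions beside them. The spread was wider than in 10A, with log2 fold changes from -2.34 to 3.47 around a median of 0.72, beside 0.52 over all regions. The regions of each gene are therefore described singly below, and whether these genes differ from others was not tested.

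**Figure D1:**
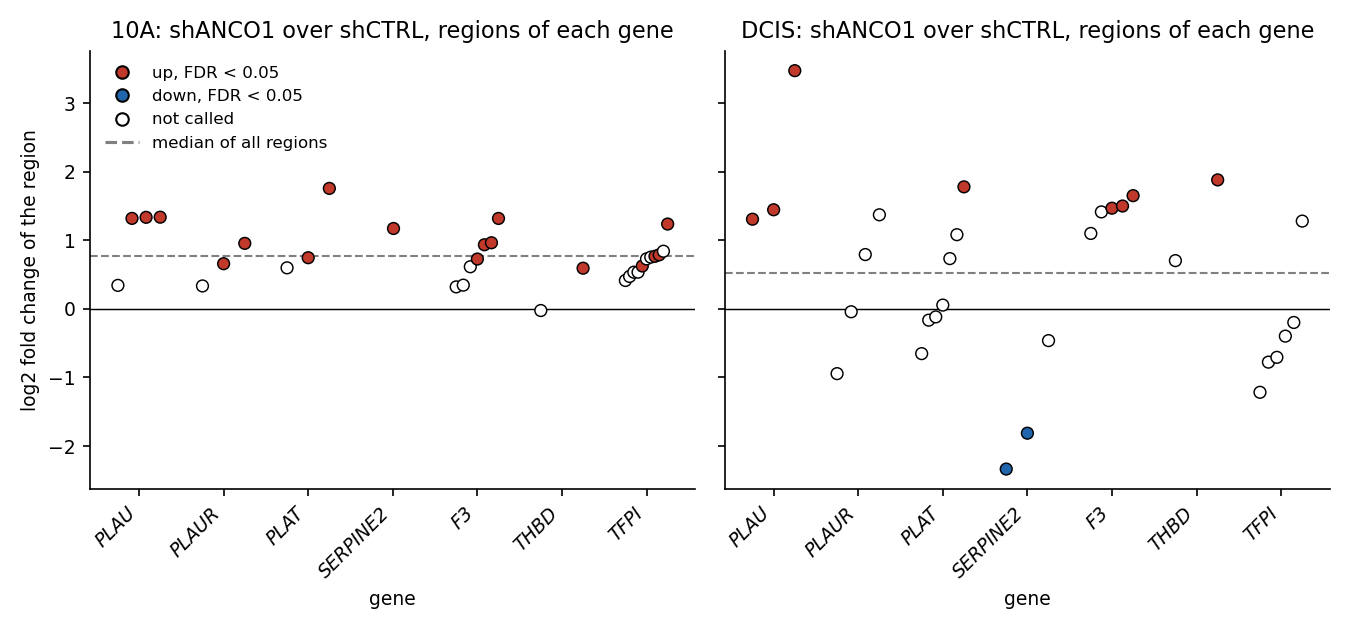
Log2 fold change (y axis, shANCO1 over shCTRL) of every region of each gene (x axis) in 10A (left) and DCIS (right); red points rose and blue points fell at FDR under 0.05, white points were not called, and the dashed line is the median of all regions of that line. In 10A all but 1 point lies above 0, whereas in DCIS the points run from -2.34 in SERPINE2 to 3.47 in PLAU.

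PLAU, on chromosome 10 from 73909177 to 73917496 in GENCODE release 44, rose along its 5' side in both lines. In 10A, a distal region at 73898401-73900400, with its near edge 10.7 kb upstream of the start site, had a log2 fold change of 1.33 (FDR 0.00635). A proximal region at 73905401-73908600, 2.53 kb upstream, had 1.32 (FDR 0.00310), and the region over the start site, at 73909201-73912200, had 1.34 with an FDR of 8.97e-06. These 3 values were nearly the same and each lay above 91.5% or more of all 10A regions. The remaining region, 8.67 kb past the start site and beyond the gene, had 0.34 and was not called (FDR 0.725).

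In DCIS, the distal PLAU region was set apart from the others. At 73898601-73899800 the log2 fold change was 3.47, an 11.1-fold difference, with all 11 of its windows up and an FDR of 2.87e-09, higher than 99.3% of the regions of that line. The table names PLAU there as a flanking gene and not as an overlapping one, and with overlapping regions alone the gene's DCIS value is 1.44 (2.72-fold). The proximal region at 73906101-73907400 rose by 1.44 on the log2 scale (FDR 0.0103, 11 of 12 windows up). Close to the start site the authors' table has a single window, at 73911401-73911600, which rose by 1.31 (FDR 0.0348). The start-site regions also name C10orf55, an overlapping gene model, so their signal belongs to both annotations. Against input, PLAU had 3 enriched regions in 10A shANCO1, with log2 enrichments of 3.17, 3.59 and 3.46, and 1 in DCIS shANCO1, over the distal site, with 4.61. None was listed in shCTRL of either line.

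F3, on chromosome 1 from 94529173 to 94541759, rose around its start site and into the gene in both lines. In 10A, 4 of 7 regions rose. The region over the start site, at 94538401-94542400, had a log2 fold change of 0.96 (FDR 0.000129, 36 of 39 windows up), the one inside the gene at 94534501-94538500 had 1.32 (FDR 0.000107), and the one upstream at 94542301-94546300 had 0.73 (FDR 0.00976). A narrower region near the 3' end, at 94532201-94532700, had 0.93 (FDR 0.0367). The largest of these rises was inside the gene and not at the start site, and DNA on both sides of the start site was already enriched over input in 10A shCTRL.

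The regions listed for F3 in shCTRL differed between the lines, which were set against input separately, so the levels themselves were not compared. In 10A shCTRL, 6 regions of F3 were enriched over input, with log2 enrichments from 2.35 to 6.92 and 4.90 kb covered. With shANCO1 the covered length was 9 kb in 3 longer regions, the strongest at 8.02. In DCIS shCTRL no F3 region was listed as enriched, and in DCIS shANCO1 there were 2, with 7.28 and 3.62, covering 1.60 kb around the start. In the direct comparison of DCIS, 3 of 5 F3 regions rose. The region over the start site, at 94539301-94543300, rose 2.83-fold with 33 of 36 windows up (FDR 0.000177). The outer ones, at 94546001-94546300 and 94527201-94527500, rose by 1.65 (FDR 0.0120) and 1.47 (FDR 0.0225) on the log2 scale, each from 2 windows. The second lies 14.3 kb past the start site, beyond the gene, and names F3 as a flanking gene alone. With at least 5 windows asked for, 1 F3 region rose in DCIS. The remaining regions had 1.41 (FDR 0.0841) and 1.10 (FDR 0.231), so all 5 lay above 1 on the log2 scale.

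SERPINE2, on chromosome 2 from 223975045 to 224039318, was the gene that lost acetylation. In DCIS the region at 224039601-224040700, whose near edge lies 315 bp upstream of the start site, had a log2 fold change of -2.34, 0.198 times the shCTRL level, with 8 of 10 windows down and an FDR of 0.000466. The next region, at 224041101-224042300 and 1.81 kb upstream, had -1.81 (FDR 0.000647, 8 of 11 windows down). These values were lower than all but 0.913% and 2.33% of the DCIS regions. The third region, just inside the gene, had -0.46 and was not called (FDR 0.513). The outer of the falling regions overlapped a stretch of 0.900 kb that was enriched in DCIS shCTRL at a log2 enrichment of 7.11, and no SERPINE2 region was enriched in DCIS shANCO1. In 10A, neither group had an enriched region, and the only region tested, in an intron 28.5 kb past the start site at 224009901-224010800, rose by 1.18 (FDR 0.0213). The SERPINE2 regions of the lines do not overlap, so the fall in DCIS has no value in 10A beside it.

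**Figure D2:**
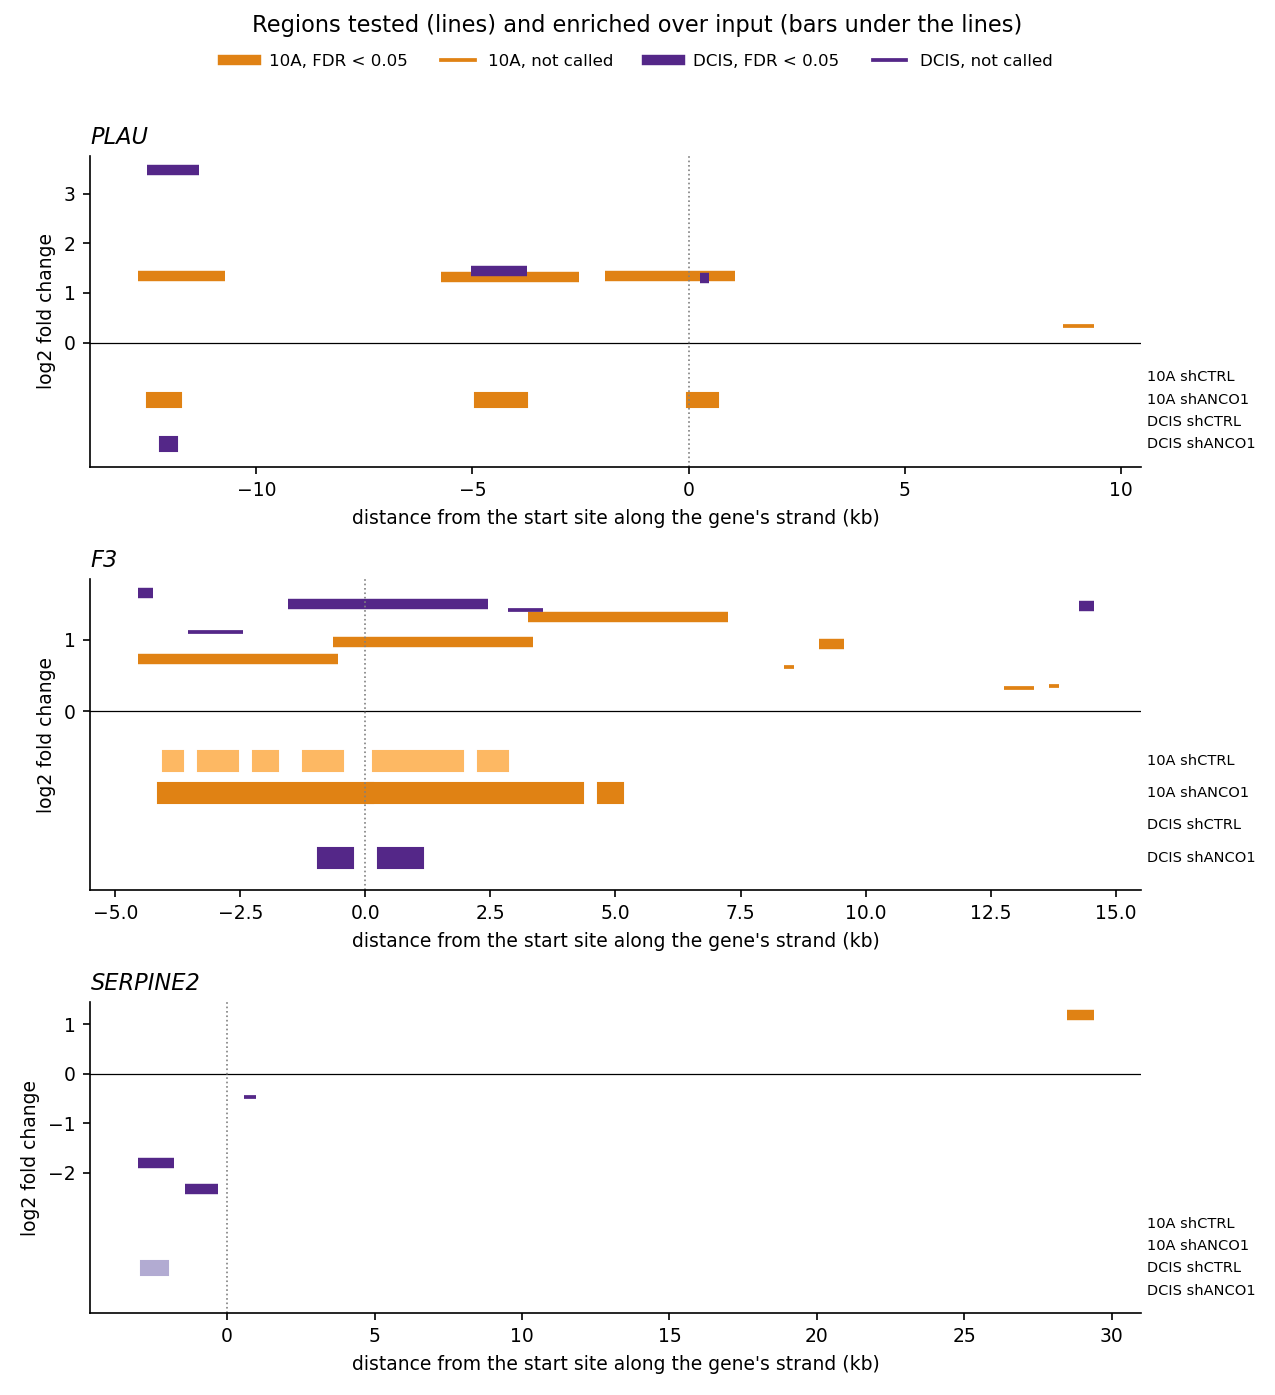
Position of each region relative to the start site (x axis, kb along the gene's strand, dotted line at 0) and its log2 fold change, shANCO1 over shCTRL (y axis), for PLAU, F3 and SERPINE2; orange lines are 10A and purple lines DCIS, thick lines passed FDR under 0.05, and the bars beneath mark regions enriched over input in each of the 4 groups, where height carries no value. PLAU has bars in the shANCO1 rows only, F3 has them in 10A of both hairpins and in DCIS of shANCO1, and SERPINE2 has a single bar, in DCIS shCTRL.

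PLAUR, on chromosome 19 from 43646095 to 43670547, rose in 10A at 2 of 3 regions. The region over the start site, at 43668901-43671400, had a log2 fold change of 0.66 (FDR 0.00490), and one with its near edge 4.23 kb upstream, at 43674401-43676100, had 0.95 (FDR 0.00469). The first of these is under the median of all 10A regions. In DCIS the values at the same places were 0.79 (FDR 0.175) and 1.37 (FDR 0.0616), larger in size but not called, and 0 of 4 regions rose. Against input, 3 PLAUR regions were enriched in each shANCO1 group, at 2.49 to 2.92 in 10A and 3.45 to 3.73 in DCIS. With shCTRL none was listed in 10A and 1 in DCIS, at the upstream site, with 3.51.

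PLAT, on chromosome 8 from 42174718 to 42207709, changed inside the gene more than at its start. In 10A an intronic region at 42194101-42197100 had a log2 fold change of 1.76 (FDR 0.00110, 21 of 26 windows up), the largest value of the 8 genes in that line and above 98.8% of its regions. The start-site region at 42206801-42207700 had 0.74 with an FDR of 0.0452, close to the threshold. In DCIS, 1 of 7 regions rose, at 42190601-42191100, also in an intron, with 1.78 (FDR 0.0124). It does not overlap the 10A region, and the DCIS regions that do had 1.08 (FDR 0.0935) and 0.73 (FDR 0.684), not called. The DCIS region over the start site had -0.12 (FDR 0.995) with 0 of 26 windows called. No PLAT region was enriched over input in 10A or in DCIS shANCO1, and 1 was in DCIS shCTRL, just inside the start, with 5.08.

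THBD, on chromosome 20 from 23045633 to 23049672, rose around its start in both lines. In 10A the region at 23049301-23052000 had a log2 fold change of 0.59 (FDR 0.00754), which is above 33.9% of all 10A regions and thus under that line's median. Within the gene, a second region had -0.02 (FDR 0.967), the only negative value among the 31. In DCIS a region of 3 windows at 23049901-23050300, 229 bp upstream, rose by 1.88 on the log2 scale (FDR 0.00440), and its neighbour had 0.70 (FDR 0.591). THBD was enriched over input in 10A shANCO1 alone among the 4 groups, at 2.65 over 1.5 kb.

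TFPI, on chromosome 2 from 187464230 to 187565760, was the most heavily marked of these genes. It was enriched over input in all 4 groups, over 14.1 kb with shCTRL and 16.3 kb with shANCO1 in 10A, and over 4 kb and 2.10 kb in DCIS. In 10A, 4 of 11 regions rose. The start-site region at 187551601-187554700 had a log2 fold change of 1.24 (FDR 0.00121), and 3 adjoining intronic regions from 187538901 to 187549700 had 0.62, 0.77 and 0.79 (FDR 0.00289, 0.0201 and 0.00756). All 11 values were positive, from 0.41 upward. In DCIS, 0 of 6 regions were called and 5 of the 6 values were negative. The start-site region had -0.20 (FDR 0.975), the lowest value was -1.22 at 187530401-187530900 (FDR 0.118), and the only positive value, 1.28 at 187543601-187547700, came with the direction mixed and an FDR of 0.0595. Regions inside TFPI also name CALCRL-AS1, an antisense RNA gene that runs across it, and ChIP-seq has no strand to tell the annotations apart.

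**Figure D3:**
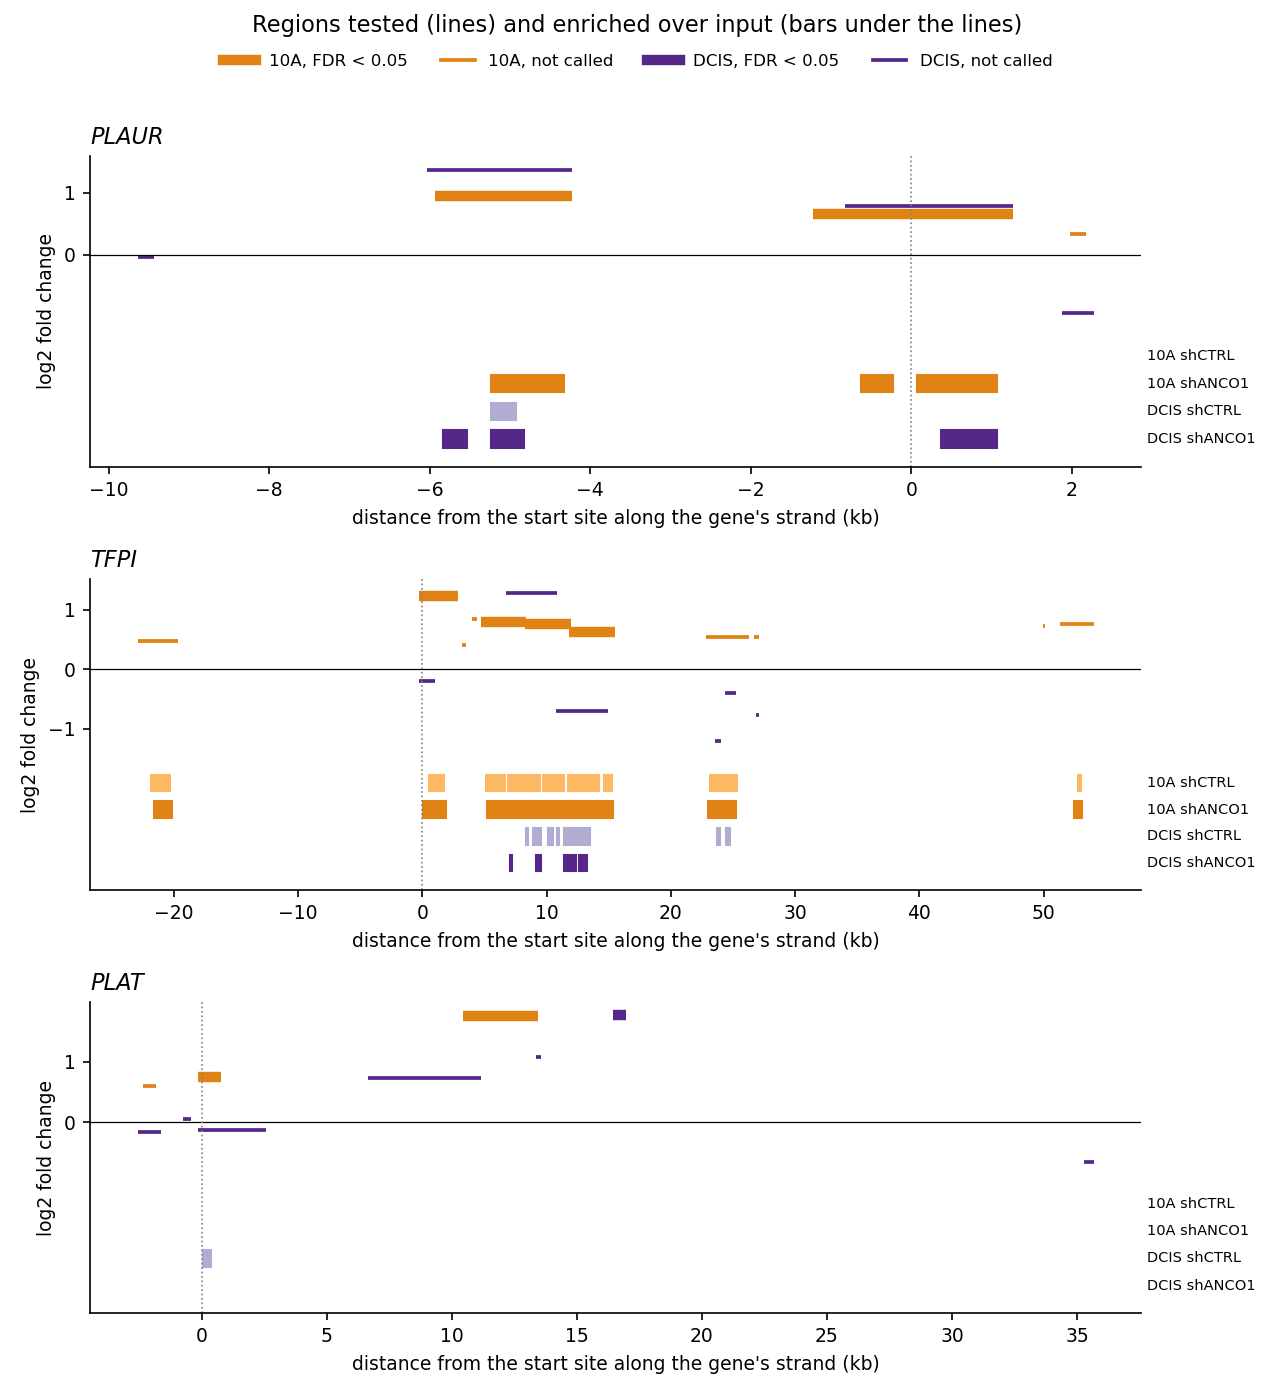
Position of each region relative to the start site (x axis, kb along the gene's strand) and its log2 fold change, shANCO1 over shCTRL (y axis), for PLAUR, TFPI and PLAT, with orange for 10A, purple for DCIS, thick lines for FDR under 0.05 and bars beneath for regions enriched over input in the 4 groups, where height carries no value. In TFPI all 11 orange lines lie above 0 and 5 of 6 purple lines lie under it, none of the purple ones called.

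At the start sites themselves, 6 of the 7 genes with a region had one spanning the start in 10A, all but SERPINE2, and all 6 rose. Of 9410 genes with a region spanning the start in that line, 66.4% had one that rose. In DCIS, 4 genes had a region spanning the start, F3, PLAUR, PLAT and TFPI, and of these F3 alone rose there, beside 6.46% of 7584 genes. Where the 2 lines had overlapping regions of a gene there were 26 pairs, made of 19 regions in 10A and 22 in DCIS. Of these, 7 pairs rose in both lines (3 in PLAU, 3 in F3 and 1 in THBD), 14 rose in 10A and were not called in DCIS, 0 rose in DCIS alone, 5 were called in neither, and 0 were called in opposite directions. Over all 33865 overlapping pairs of the tables, 16.7% rose in both lines, 36.1% in 10A alone, 12.1% in DCIS alone and 32.4% were called in neither, so more pairs rising in 10A alone than in DCIS alone is also the pattern of the tables as a whole. Of the 26, 9 had a negative value in DCIS, beside 27% of all pairs. Whether a change differed between the lines was not tested, because the tables hold no value per library.

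Enrichment over input gives a second view of the same loci. Nearly every listed region passed the threshold (100% of each of the 4 input tables to 3 significant digits, with 15480 of 15482 in DCIS shCTRL and all regions in the others), so absence means that a region was under a limit that is not given in the sources used here. In 10A, 5 of the 8 genes had an enriched region with shANCO1 (PLAU, PLAUR, F3, THBD and TFPI) and 2 with shCTRL (F3 and TFPI), covering 31.8 kb and 19.0 kb in all. Genome-wide, 10A had 28607 listed regions with shANCO1 and 15490 with shCTRL. A longer list with shANCO1 was thus not particular to these genes. The mean log2 enrichment of the regions of these genes was 4.40 with shANCO1 and 5.36 with shCTRL, while F3 and TFPI, the genes listed in both groups, differed little (5.07 and 5.16 for F3, 5.49 and 5.49 for TFPI). The genes listed with shANCO1 alone had lower means, 3.41 for PLAU, 2.74 for PLAUR and 2.65 for THBD. Over all listed regions the median was 3.40 with shANCO1 and 3.32 with shCTRL. In DCIS, 4 genes had one with shANCO1 (PLAU, PLAUR, F3 and TFPI) and 4 with shCTRL (PLAUR, PLAT, SERPINE2 and TFPI), covering 5.50 kb each, at means of 4.87 and 6.45. Over all listed DCIS regions the median was 4.47 with shANCO1 and 4.09 with shCTRL, the other way round. TFPI made up 7 of the 10 shCTRL regions, at a mean of 6.97, and 4 of the 10 with shANCO1, at 5.63. PLAU and F3 were listed with shANCO1 alone in DCIS, and PLAT and SERPINE2 with shCTRL alone. For PLAT the listing rests on 2 windows, and the DCIS region over its start was not called between hairpins (-0.12, FDR 0.995). The share of all genes listed in 1 group alone was not computed for either line. Whether these gene counts differ from those of other genes is therefore not known. Of the regions tested between hairpins, 16 of 31 in 10A overlapped one enriched in shANCO1 (51.6%, beside 45.2% of all regions) and 9 overlapped one enriched in shCTRL (29.0%, beside 23.5%). In DCIS these were 6 of 30 (20.0%, beside 30.3%) and 7 of 30 (23.3%, beside 27%).

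**Figure D4:**
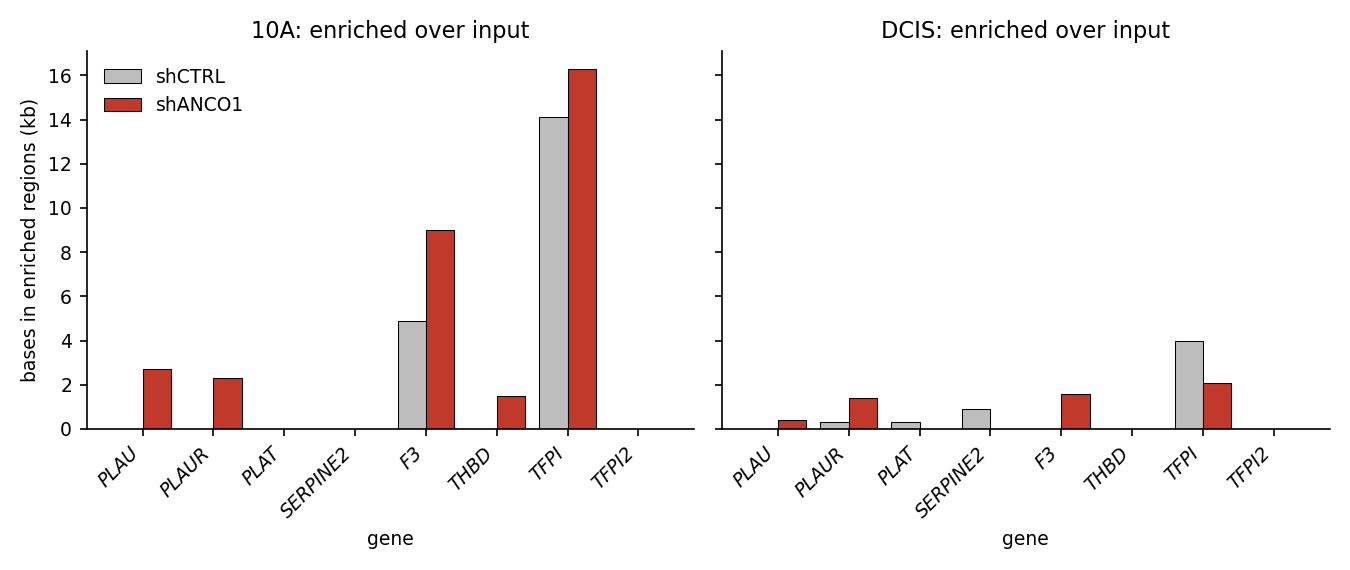
Length of DNA in regions enriched over input (y axis, kb) for each gene (x axis), with shCTRL in grey and shANCO1 in red, in 10A (left) and DCIS (right); there is 1 value per group and no error. F3 goes from 4.90 to 9 kb in 10A and from 0 to 1.60 kb in DCIS, and TFPI from 14.1 to 16.3 kb in 10A and from 4 to 2.10 kb in DCIS.

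Among 16 other genes of the plasmin system, 13 had a region in 10A and 12 of them had one that rose, with 33 of 54 regions up (61.1%, beside 43.6% of all regions), 0 down and a median log2 fold change of 0.90. In DCIS, 12 had a region and 6 had one that rose, among them ANXA2, S100A10 and LRP1, with 19 of 46 regions up (41.3%, beside 23.6%), 0 down and a median of 0.92. These gene counts stand beside 74.3% and 32.2% of all genes named. The lowest FDR in 10A was that of ANXA2, at a log2 fold change of 1.41 (FDR 3.05e-06). ANXA2 encodes annexin A2, which with S100A10 holds plasminogen at the cell surface. In DCIS the region of ANXA2 with the lowest FDR had 1.26 (FDR 0.000298).

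Of 20 other coagulation genes, 9 had a region in 10A and 8 in DCIS. In 10A, 5 of 22 regions rose (22.7%, median 0.61), led by PROS1, the gene of protein S, at 1.30 (FDR 0.000419). In DCIS, 2 of 9 rose (22.2%, median 0.38), led by VWF, the gene of von Willebrand factor, at 1.65 (FDR 0.00692) from a single window. Both shares are under those of the plasmin list. In 10A the share is also under the background of 43.6% of all regions, and in DCIS it is near the background of 23.6%. The 4 protease-activated receptor genes code for the receptors through which thrombin and related proteases signal. Of these, 3 had a region in 10A and 2 in DCIS. In 10A, 1 of their 7 regions rose and 1 fell (14.3% each, beside 43.6% and 0.225% of all regions). In DCIS, 1 of 4 rose and 1 fell (25% each, beside 23.6% and 4.86%). The rises were in F2RL1, at 1 of its 4 regions in 10A (0.80, FDR 0.0300) and 1 of its 2 in DCIS (1.66, FDR 0.00461). F2RL3 had the region that fell in each line (-0.99, FDR 0.0196 and -1.58, FDR 0.0170).

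AP-1 and TEAD words were counted because the study looked for the motifs of these transcription factor families. In the 500 bp at the midpoint, an AP-1 word on either strand was present in 6 of 31 regions of these genes in 10A (19.4%, beside 18.3% of all regions) and in 3 of 30 in DCIS (10.0%, beside 15.4%). A TEAD word was present in 10 (32.3%, beside 27.9%) and 9 (30%, beside 27.1%). Over the whole region the AP-1 word was present in 15 of 31 (48.4%, beside 30.6%) and 11 of 30 (36.7%, beside 25.8%), a count that grows with the width of a region. An AP-1 and a TEAD word with at most 50 bases between them were found in the distal and the proximal PLAU regions alone, 2 regions in each line (6.45% and 6.67%, beside 3.29% and 2.61% of all regions); this spacing was chosen after the PLAU sequences had been seen. Among RefSeq promoters of 250 bases before to 50 after the start, 4.95% of 35116 hold the AP-1 word. The TEAD word is held by 4928 of those 35116. There were 8 such promoters, for 6 of the genes examined here. In the 250 bases before the start, a shorter stretch than the one behind those shares, F3 and PLAUR alone hold the AP-1 word. None of the 8 holds the TEAD word there. A word match is a description of the letters and does not show that a factor binds there.

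The labelled cell type was set against markers. In shCTRL, the basal mammary markers KRT5, TP63 and ITGB4 were named by an enriched region in both lines, KRT17 in DCIS alone, and KRT14 in neither line. All 4 general epithelial genes were named in every group. Of 4 genes each, the shCTRL groups had 0 for fibroblasts, 2 for endothelium (PECAM1 and CDH5) and 2 for luminal cells (ESR1 and GATA3). Naming includes flanking genes. With shANCO1 the fibroblast count was 2 in 10A (COL1A1 and PDGFRB) and 1 in DCIS (COL1A1), and the endothelial count was 3 in 10A, with TEK, and 2 in DCIS. THBD and F3 are also genes of endothelium or perivascular cells, whereas all libraries here came from cultured mammary epithelial lines.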

How the data were processed

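The 6 deposited tables hold the authors' comparisons of H3K27ac libraries, 1 line per region: shANCO1 over shCTRL in each line and each of 4 groups over input. Per the study's methods, reads were aligned to GRCh38 with BWA and Rsubread, deduplicated with samtools and compared with csaw, and regions were annotated with ChIPpeakAnno. The deposited p-value and FDR of a region are the authors', combined over its windows. The deposited log2 fold change is that of 1 representative window. The deposited window numbers are used here as a score, since they count tested windows and not reads. Normalization, window filter, merging distance, prior count and which inputs were used are not given in the sources used here, and depth per library is unknown, so no interval that needs counts is given. An unstated normalization sets the zero of every fold change.

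Tables were read with pandas 2.3.3 in Python 3.11.15. No test was run on the values, which have no replicates in them. Calls took FDR under 0.05 with the authors' direction, and mixed regions were left uncalled. Overlap was at least 1 bp. Shares over all start sites used the MANE Select transcripts of GENCODE. Gene positions and start sites came from GENCODE release 44, and 0 regions ran past a chromosome end of GRCh38. Named regions were, per gene and line, the lowest FDR, the nearest to the start and the largest change among those called, with further regions given for context. For the other lists the gene of lowest FDR was named, apart from a few items that are not reported here, and the remaining names were added after their values were seen. RefSeq promoters were found for 6 of the 8 genes. Words were searched in the genome with pysam 0.24.0, and the counting was tested on simulated tables. The genes and lists were chosen with earlier results of these data known. Alternatives were other FDR limits, a minimum fold, centring on the line's median, a minimum of 5 windows, gene assignment by overlap alone or by gene body and 5 kb upstream, and other motif windows.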

Additional observations from a re-analysis of the deposited data

How the results depend on the processing

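Each of 10 counts of regions or genes was taken again under 5 or 8 alternatives. Of these repeats, 58 came within 1.5 times the reported count, 8 of them the count of 0 regions that fell in 10A, and 10 did not. Regions that rose in 10A went from 17 to 7 once a change of 1 log2 unit or more was asked for, and to 0 when that unit was counted from the line's median of all regions, under which 0 genes in place of 7 had a region that rose. Regions that rose in DCIS went from 8 to 3 at FDR under 0.01, to 4 at 1 log2 unit from the median (with 2 still down), and to 3 with at least 5 windows, where 2 genes in place of 4 had one. Enriched regions in DCIS with at least 5 windows went from 10 to 5 with shANCO1 and from 10 to 3 with shCTRL, and at FDR under 1e-10 from 10 to 6 with shCTRL. In single genes, the largest PLAU value in DCIS went from 3.47 to 1.44 with overlapping regions alone and to 1.31 at the region nearest the start, still called. The THBD value in 10A was -0.17 relative to the line's median, and the PLAT region nearest the start in DCIS had -0.12 (csaw FDR 0.995) in place of a rise. Fold changes in 10A thus depend on where 0 is set. No paired analysis was possible because the tables hold no value per library, and for the same reason no library could be left out.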
